A study of Mus musculus with 24 samples.

Results

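A set of 10 transcripts of colon epithelium was followed in RNA of sorted myeloid cells, to describe their level in the sorted fractions. They are Epcam, Cdh1, Krt8, Krt18, Krt19, Lgals4, Vil1 and Muc2, 8 genes that epithelial cells use, and Nkd1 and Pla2g2a, which were added because they were higher in all tumour libraries. The members were taken by symbol from the table of log2 RPKM (reads per kilobase of transcript, scaled to library size), and all 10 were found among its 17301 genes. Because the values of Nkd1 and Pla2g2a in tumour and normal tissue chose them, that difference is given as a description with no test. The other 8 were tested between tumour and normal tissue, and all 10 within each tissue.

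The samples were 4 myeloid populations sorted from 2 tissues, with 3 libraries in each of the 8 groups, 24 in all. The normal tissue was colon lamina propria (LP) of mice of the strain labelled C57/BL, and the tumours were colon tumours of mice labelled APC/Min (ApcMin/+), which carry a germline mutation of the Wnt pathway gene Apc and form intestinal adenomas. Per the methods both lines were of C57BL/6J background. The populations were F4/80 high MHCII high macrophages (MHCIIhi), F4/80 high MHCII low macrophages (MHCIIlow), monocytes and neutrophils. Each library came from tissue pooled over mice, so that the roman numeral of a library names a pool and not an animal. The tumour mice had received dextran sodium sulphate (DSS), and the methods describe DSS for control mice too, whereas the labels call the LP healthy. The labels give the LP protocol for all samples, in which the colon was shaken in EDTA to strip the epithelium before digestion. The methods describe mincing and digestion of tumours with no such step, and which was used for the tumour libraries is not settled. Tissue, Apc genotype and any difference in preparation cannot be told apart in any comparison of tumour with LP. Libraries of 1 tissue with the same numeral share a donor label. The main fit treated them as independent, and p-values measure the spread between these libraries.

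Library depth was 12838061 to 41718078 reads on genes, with a median of 26.4 M reads (M, mega). MHC class II and neutrophil markers lay in their own populations. H2-Ab1, an MHC class II chain, was at 8830 to 10500 RPKM in LP MHCIIhi and 102 to 715 in LP MHCIIlow macrophages. S100a8, a neutrophil marker, was at 4490 RPKM or more in every neutrophil library and at 60.2 or less in every other. The library sizes behind the deposited RPKM were scaled between libraries by 0.466 to 1.507 times the reads on genes, lowest in tumour neutrophils, which raises the RPKM of neutrophil libraries against a plain share of the reads. Among the LP monocytes, 2 libraries stood apart. The summed level of 8 squamous keratinocyte genes was 2800 RPKM in LP monocyte library III and 1020 in library V, against 5.25 in library IV and at most 37.1 in any library of the other groups, so the tests of members that use LP monocytes, and the reads per Epcam read, are also given without both.

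Colon epithelium is a single sheet of absorptive colonocytes and mucus-secreting goblet cells renewed from crypt stem cells. Epcam and Cdh1 (E-cadherin) join its cells, Krt8, Krt18 and Krt19 build its keratin filaments, Lgals4 is a galectin of the gut lining, Vil1 (villin) bundles actin in the brush border and Muc2 is the gel-forming mucin of goblet cells. Wnt signalling through beta-catenin keeps crypt cells dividing, and loss of Apc leaves it switched on in adenoma cells. Nkd1 is an intracellular antagonist of the pathway that is itself induced by it, and Pla2g2a is a secreted phospholipase of intestinal secretory cells that is known in mice as a modifier of Min tumour number.

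On GRCm38 (GENCODE M21) Epcam lies at chr17:87635979-87651129, Cdh1 at chr8:106603351-106670246 and Nkd1 at chr8:88521354-88594884, all on the plus strand. Krt8 at chr15:101996698-102004482 (minus strand) and Krt18 at chr15:102028180-102032027 (plus strand) are neighbours, and Krt19 lies at chr11:100140810-100148665 on the minus strand. On the plus strand, Lgals4 lies at chr7:28833854-28841708, Muc2 at chr7:141690340-141754693, Vil1 at chr1:74409376-74435559 and Pla2g2a at chr4:138831857-138835186. The other 9 are annotated as protein coding, and Pla2g2a as a polymorphic pseudogene, which is intact in some mouse strains and disrupted in others. Of the 51-base stretches of Krt8 transcripts 29.45% also occur in other genes, mostly in the pseudogene Krt8-ps, and Krt8 values are uncertain to that extent. The share was 0.58% for Krt18 and 0 for the other 8.

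The promoters of 3 members are shown because their levels moved apart from each other in the comparisons below: Epcam and Lgals4, whose ratio separated tumour from LP neutrophils, and Muc2, whose values in MHCIIlow macrophages lay on the other side from those of Krt18. The sequences are from RefSeq (GRCm38.p6), the 250 bases before the RefSeq start on the plus strand, at chr17:87635729-87635978, chr7:28833544-28833793 and chr7:141690090-141690339. For Lgals4 that start lies upstream of the GENCODE start given above. Capitals mark the E-box CACCTG on either strand, a sequence bound by repressors of epithelial genes such as Snai1, which was chosen with the sequences in view and is absent from the Muc2 window.
Epcam: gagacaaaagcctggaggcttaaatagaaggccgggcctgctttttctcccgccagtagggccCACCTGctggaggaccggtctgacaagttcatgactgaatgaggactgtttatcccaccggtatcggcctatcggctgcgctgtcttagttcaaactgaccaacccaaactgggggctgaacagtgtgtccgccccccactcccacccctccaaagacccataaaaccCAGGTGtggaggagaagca
Lgals4: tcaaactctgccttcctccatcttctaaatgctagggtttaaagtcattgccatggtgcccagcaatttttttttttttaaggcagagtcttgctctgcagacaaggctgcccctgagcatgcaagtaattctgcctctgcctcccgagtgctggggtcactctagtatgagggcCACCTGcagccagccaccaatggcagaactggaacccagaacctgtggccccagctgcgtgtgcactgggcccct
Muc2: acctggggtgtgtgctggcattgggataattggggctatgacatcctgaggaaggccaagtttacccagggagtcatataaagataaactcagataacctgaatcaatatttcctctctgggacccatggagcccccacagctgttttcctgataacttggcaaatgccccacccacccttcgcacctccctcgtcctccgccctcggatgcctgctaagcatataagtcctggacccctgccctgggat
The E-box occurred 2 times in the Epcam window, once in that of Lgals4 and not in that of Muc2, against 17.2% of 32851 windows of this length. Windows were found for 7 of the 10 members, and those of Krt8, Krt18 and Nkd1 held 1 E-box each and that of Vil1 none. The Nkd1 window, at chr8:88527383-88527632, lies inside the gene as annotated by GENCODE, so the sequence before its GENCODE start was not searched. The motifs ATCAAAG and TTCAAAG of the TCF factors that carry the Wnt signal were in 0 of these 7 windows and in 7.48% of all.

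Nkd1 and Pla2g2a were near absent from LP libraries and present in every tumour library. Nkd1 had 0 reads in 11 LP libraries and 1 read in LP neutrophil library IV. In tumours it had 46, 157 and 51 reads in MHCIIhi macrophage libraries I, V and VII, 24, 98 and 137 in MHCIIlow libraries I, V and VII, 106, 224 and 202 in monocyte libraries I, II and V, and 100, 31 and 66 in neutrophil libraries I, II and V. The lowest tumour library thus held 24 reads and the highest LP library 1. In bulk RNA, more epithelial cells in a sort and more of these transcripts per sorted cell cannot be told apart. Which cells made the transcripts was not tested. The paper gated the fractions by myeloid surface markers and shows the purity of the sorts. Against a floor of 3 reads over the LP group, mean Nkd1 RPKM was at least 30.2-fold higher in tumour MHCIIhi macrophages, at least 21.1-fold in MHCIIlow macrophages and at least 71.4-fold in monocytes, and the ratio in neutrophils was 409 (95% counting interval 72.6 to 16200). These bounds and intervals cover counting error only. Of all read numbers from 1 to 20, 65.1% were even, so both mates of a read pair may often have been counted. That would lower the bounds and widen the intervals.

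Pla2g2a had 0 reads in 11 LP libraries and 2 reads in LP MHCIIlow library II. Its tumour reads were 258, 56 and 66 in MHCIIhi libraries I, V and VII, 86, 44 and 323 in MHCIIlow libraries I, V and VII, 314, 345 and 296 in monocyte libraries I, II and V, and 214, 62 and 134 in neutrophil libraries I, II and V. No tumour library overlapped any LP library. Mean RPKM was at least 56.0-fold higher in tumour MHCIIhi macrophages, at least 126-fold in monocytes and at least 86.4-fold in neutrophils, and the ratio in MHCIIlow macrophages was 186 (51.2 to 1540). Nkd1 and Pla2g2a were the only members in which all 12 tumour libraries exceeded all 12 LP libraries, as they were chosen to be, and 0.14% of the 12878 genes tested, 18 in number, did so.

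Both were set against Epcam in the same libraries. LP libraries had 20 to 1990 Epcam reads, 5059 in all, with 1 Nkd1 and 2 Pla2g2a reads, or 0.0198 and 0.0395 per 100 Epcam reads. LP monocyte libraries III and V, where the squamous genes were high, held 3621 of these Epcam reads, and over the other 10 LP libraries, with 1438, the values were 0.0695 and 0.139 per 100. Tumour libraries had 50 to 2652 Epcam reads, 9632 in all, with 1242 Nkd1 and 2198 Pla2g2a reads, or 12.9 and 22.8 per 100. LP monocyte library III, with 1990 Epcam reads, had 0 of either, which allows up to 0.151 reads per 100 Epcam reads, but the limits in LP libraries other than III and V with 0 reads were 0.789 to 15.0 per 100. In tumours the ratio of Nkd1 to Epcam RPKM lay between 0.0377 and 0.0578 in all 6 monocyte and neutrophil libraries, between 0.0669 and 0.266 in MHCIIhi macrophages and between 0.00865 and 0.893 in MHCIIlow macrophages. For Pla2g2a the ratio was 0.286 to 0.775 in monocytes and neutrophils, 0.383 to 1.80 in MHCIIhi and 0.148 to 1.94 in MHCIIlow macrophages. These ranges overlapped between populations for Pla2g2a, and for Nkd1 except between MHCIIhi macrophages and the monocytes and neutrophils, and no test was made. The lowest of both ratios belonged to tumour MHCIIlow library I, which had the most Epcam of the tumour macrophage libraries, and the highest to MHCIIlow library V, which had the least.

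**Figure D1:**
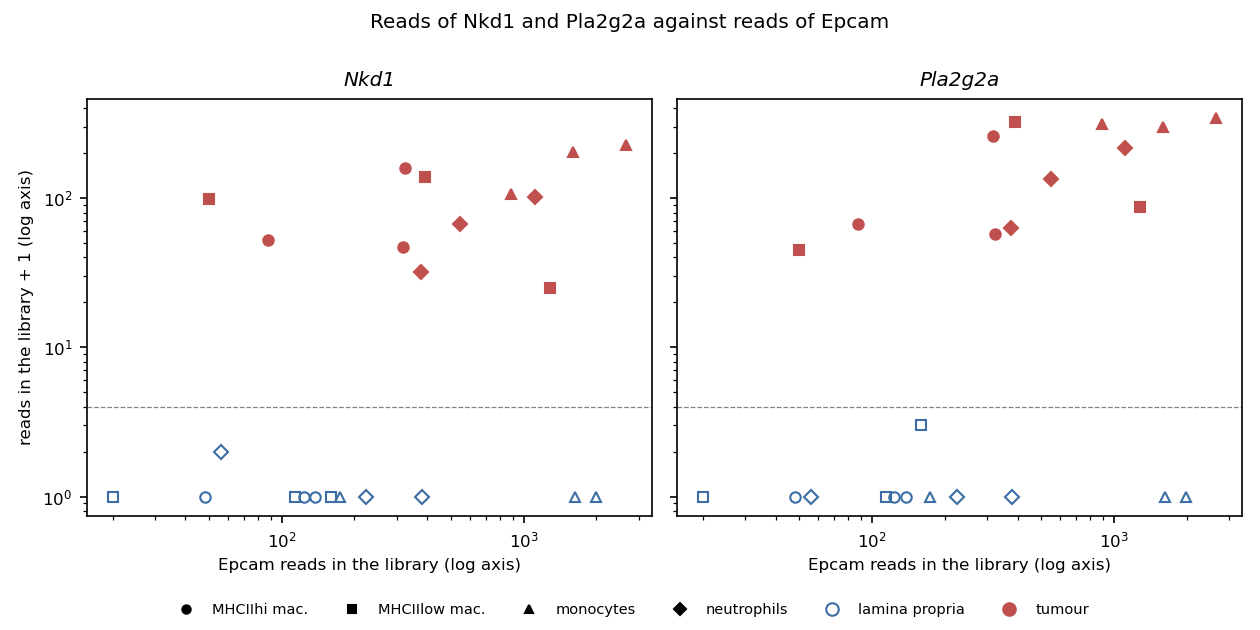
Reads of Nkd1 (left) and Pla2g2a (right), plus 1, against reads of Epcam in the same library, both axes logarithmic. Each symbol is 1 of 24 libraries, open for LP and filled for tumour, the shape gives the population, and the dashed line is the floor of 3 reads. The 12 tumour libraries lie at 24 reads or more for Nkd1 and 44 or more for Pla2g2a, and the LP libraries at 2 reads or fewer, with 20 to 1990 Epcam reads.

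The 8 epithelial members were present at low levels in both tissues, and by mean RPKM tumour monocytes or tumour neutrophils ranked first for each. Epcam, the cell adhesion molecule used to sort epithelium, was at 43.8, 22.7 and 35.0 RPKM in tumour neutrophil libraries I, II and V and at 14.6, 46.0 and 30.3 in tumour monocyte libraries I, II and V. It was at 5.65, 3.58 and 1.49 RPKM in tumour MHCIIhi libraries I, V and VII, and at 23.7, 0.565 and 6.84 in tumour MHCIIlow libraries I, V and VII, so that macrophage libraries spread more widely than the others. In LP it was at 1.48, 1.42 and 0.755 RPKM in MHCIIhi libraries III, IV and V, at 1.90, 0.459 and 3.16 in MHCIIlow libraries II, III and IV, and at 4.60, 2.05 and 8.68 in neutrophil libraries III, IV and V. LP monocyte library IV had 1.94 RPKM of Epcam, whereas the libraries with squamous keratins, III and V, had 38.8 and 22.0, as high as tumour monocytes.

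Cdh1, which forms the adherens junctions, was highest in LP in the same 2 monocyte libraries as Epcam. It was at 21.9, 4.93 and 17.9 RPKM in LP monocyte libraries III, IV and V, the last with 2986 reads, and at 0.857 RPKM or less in the 6 LP macrophage libraries, among which MHCIIhi library IV had 2 reads and MHCIIlow library IV had 3. LP neutrophils had 0.392 to 2.10 RPKM. In tumours Cdh1 was at 8.35, 23.4 and 18.8 RPKM in monocyte libraries I, II and V, 10.2, 3.38 and 12.3 in neutrophil libraries I, II and V, 2.18, 2.81 and 0.303 in MHCIIhi libraries I, V and VII, and 3.51, 4.46 and 3.10 in MHCIIlow libraries I, V and VII. All 3 tumour MHCIIlow libraries lay above the 3 LP MHCIIlow libraries, which had 0.329, 0.215 and 0.0390 RPKM.

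Among the keratins, Krt18 separated tumour from LP most evenly. Its RPKM was 0.318, 0.484 and 0.599 in LP MHCIIhi libraries III, IV and V against 11.4, 9.04 and 1.14 in tumour MHCIIhi libraries I, V and VII. In MHCIIlow macrophages it was 3.11, 1.13 and 1.06 in LP libraries II, III and IV and 12, 3.27 and 4.81 in tumour libraries I, V and VII. In monocytes it was 2.16, 3.22 and 4.01 in LP libraries III, IV and V and 16.5, 53.7 and 42.6 in tumour libraries I, II and V. In neutrophils it was 1.74, 2.03 and 5.13 in LP libraries III, IV and V and 59.0, 39.4 and 47.0 in tumour libraries I, II and V. Tumour and LP did not overlap in any of the 4 populations, where 20.9% (MHCIIhi macrophages), 22.7% (MHCIIlow macrophages), 16.2% (monocytes) and 18.3% (neutrophils) of all genes tested were higher in tumours without overlap.

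Krt8, the partner of Krt18 in simple epithelial filaments, was at 35.5, 120 and 74.9 RPKM in tumour monocytes (libraries I, II, V) and 128, 53.9 and 93.1 in tumour neutrophils (I, II, V), above the 2.65 to 10.7 of LP monocytes and the 5.61 to 25.4 of LP neutrophils. In macrophages the tissues overlapped, with 1.56 to 5.06 RPKM in LP MHCIIhi, 9.96 to 11.9 in LP MHCIIlow, 3.21 to 24 in tumour MHCIIhi and 2.11 to 90.6 in tumour MHCIIlow macrophages. The highest single value of Krt19 was 73.5 RPKM, in LP monocyte library III. Its other LP values were 0.933 to 16.2 RPKM, and its tumour values were 1.01 to 55.7 RPKM in macrophages, 25.3 to 65.8 in monocytes and 27.2 to 61.3 in neutrophils.

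Lgals4, the galectin of the gut lining, was at 0.382, 0.533 and 2.25 RPKM in LP monocyte libraries III, IV and V, below LP MHCIIlow macrophages (5.20, 6.56 and 10.4 in libraries II, III and IV) and LP neutrophils (5.88, 3.51 and 12.1 in libraries III, IV and V). It was at 9.64, 29.9 and 12.8 RPKM in tumour monocyte libraries I, II and V and 34.8, 17.1 and 15.9 in tumour neutrophil libraries I, II and V, both above their LP counterparts. In macrophages it overlapped, at 2.15 to 6.51 RPKM in tumour MHCIIhi and 3.01 to 29.2 in tumour MHCIIlow macrophages. Vil1 was low, with 0 to 125 reads in LP and 0 to 498 in tumour libraries, and group means above 1 RPKM only in tumour MHCIIlow macrophages, monocytes and neutrophils. Muc2 was scattered: 2957 reads fell in LP MHCIIlow library II and 1431 in LP monocyte library IV, whereas LP MHCIIhi library III and LP monocyte library V had 0. Tumour neutrophils had 2.93, 5.62 and 2.63 RPKM of Muc2 in libraries I, II and V, and the 3 tumour MHCIIlow libraries, at 0.0113 to 0.170 RPKM, lay below the 3 LP MHCIIlow libraries, at 0.430 to 10.0.

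**Figure D2:**
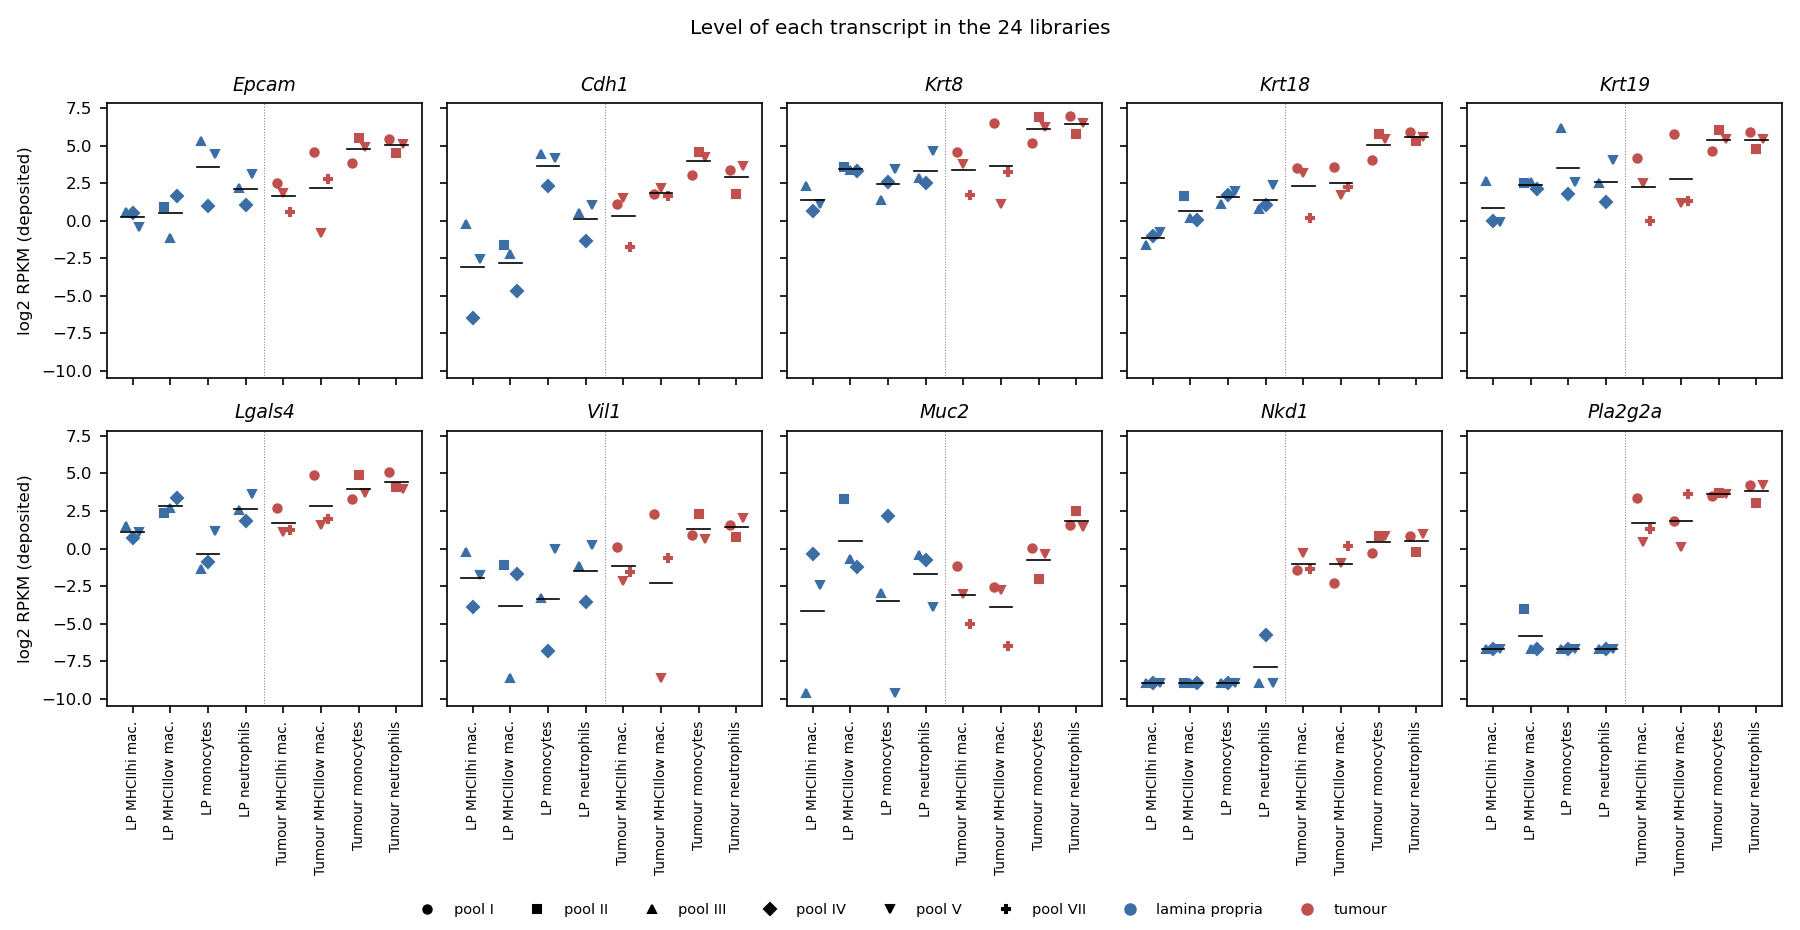
Deposited log2 RPKM of the 10 transcripts in each library, grouped by tissue (LP blue, tumour red) and population, with the symbol giving the pool and the short line the mean of 3 libraries. Nkd1 and Pla2g2a sit at the lowest value the table can hold in nearly all LP libraries, and the other 8 are spread over LP and tumour, with the highest group mean in tumour monocytes or neutrophils for each.

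By mean RPKM, tumour neutrophils or tumour monocytes ranked first of the 8 groups for all 10 members. These 2 groups overlapped each other for every member but Muc2, so their order was otherwise within the spread. LP monocytes followed for Epcam, at 20.9 ± 18.4 RPKM (SD, n = 3), and for Krt19, at 27.6 ± 39.8, and second for Cdh1, at 14.9 ± 8.89. Tumour MHCIIlow macrophages ranked next after them for Krt8, Lgals4, Vil1, Nkd1 and Pla2g2a. LP MHCIIhi macrophages were last for Epcam, Krt8, Krt18 and Krt19, and only for Krt18 (0.467 ± 0.141 RPKM) did the last group not overlap the one above it. All 10 members reached a mean of 1 RPKM in at least 1 group and were among the 12878 genes tested. Pla2g2a did so in the 4 tumour groups alone, Vil1 in 3 and Nkd1 in 2 of them, so that these 3 entered the test through tumour libraries, Nkd1 through tumour monocytes and neutrophils. A gene that enters in this way had to be higher there, so counts are also given without Vil1, or without Nkd1 within tumours. Muc2 passed in 3 groups, and the other 6 members in 6 to 8.

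Tumour against LP was tested for the 8 epithelial members in each population with limma on the log2 RPKM, with p-values adjusted over all 12878 genes by the Benjamini-Hochberg method and a threshold of 0.05. In MHCIIhi macrophages 1 of the 8 was higher in tumours and 0 lower, where 8.01% and 11.5% of all genes were: Krt18 by 3.44 ± 0.70 (log2 difference ± SE, limma adjusted p = 0.0015). Cdh1 had a larger error, at 3.39 ± 1.20 (limma adjusted p = 0.0526), and passed with the pool number as a replicate block (3.36, adjusted p = 0.0466), which gave 2 members. Krt8 at 1.99, Epcam at 1.42, Krt19 at 1.38, Muc2 at 1.04, Vil1 at 0.76 and Lgals4 at 0.57 did not pass. The median of the 8 was 1.40 and that of the 7 without Vil1 1.42, against -0.00 over all genes. Without LP MHCIIhi library III or tumour MHCIIhi library VII the count was 2, Cdh1 being added (adjusted p = 0.00776 and 0.0244), and with only these 6 libraries in the fit it was 0 (Krt18, adjusted p = 0.058).

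In MHCIIlow macrophages 1 of 8 was higher in tumours and 0 lower, with 11.5% of all genes higher and 11.8% lower: Cdh1 by 4.70 ± 1.20 (limma adjusted p = 0.00657). Krt18 was at 1.89 ± 0.70 (limma adjusted p = 0.0586). Epcam at 1.68, Vil1 at 1.51, Krt19 at 0.37, Krt8 at 0.20, Lgals4 at -0.03 and Muc2 at -4.40 ± 2.37 (limma adjusted p = 0.201) did not pass, and the median was 0.94, or 0.37 without Vil1, against 0.06. Muc2 was the only member whose tumour libraries lay wholly below LP in any population, as 19.3% of all genes did in this one. Without tumour MHCIIlow library V, in which Vil1 had 0 reads, the count was 3, with Epcam at 3.18 (adjusted p = 0.0356) and Krt18 at 2.29 (adjusted p = 0.0481) added, and without LP library II it was 2.

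In monocytes 3 of 8 were higher in tumours and 0 lower, with 4.86% of all genes higher and 4.43% lower: Lgals4 by 4.33 ± 0.76 (limma adjusted p = 0.000978), Krt8 by 3.63 ± 0.98 (limma adjusted p = 0.0221) and Krt18 by 3.47 ± 0.70 (limma adjusted p = 0.00339). Vil1 was at 4.66 ± 2.23 (limma adjusted p = 0.224), and Muc2 at 2.70, Krt19 at 1.86, Epcam at 1.21 and Cdh1 at 0.31 did not pass. The median was 3.08, or 2.70 without Vil1, against -0.00. With LP monocyte libraries III and V left out, LP was represented by library IV alone, which was assumed to vary like the other groups, and only Lgals4 passed. Krt8 then stood at 3.54 (adjusted p = 0.251) and Krt18 at 3.38 (adjusted p = 0.106), nearly the same size with a larger error. Krt8 also missed the threshold without LP library III (adjusted p = 0.106) and without tumour library II (0.0936) or V (0.0633).

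In neutrophils all 8 lay higher in tumours without overlap between the tissues in RPKM, Vil1 among them, as 18.3% of all genes did. As reads scaled to the reads on genes alone (RPM), Lgals4 overlapped, at 17.8 in tumour library V and 18.1 in LP library V. Vil1 was nearly level on that scale, at 2.8 in tumour library II and 2.74 in LP library V. The other members did not overlap there either. The test called 2 of the 8 higher and 0 lower, with 13.1% of all genes higher and 19.0% lower. These were Krt18 by 4.19 ± 0.70 (limma adjusted p = 0.000148) and Krt8 by 3.09 ± 0.98 (limma adjusted p = 0.0204). Epcam at 2.91 ± 1.11 (limma adjusted p = 0.0516), Cdh1 at 2.83, Krt19 at 2.78 and Lgals4 at 1.75 missed the adjusted threshold although their unadjusted p-values were 0.0168 to 0.0352. Muc2 was at 3.51 and Vil1 at 2.91. On the scale of log2(RPKM + 1), which damps the spread of low values, 7 of the 8 passed. Krt8 lost the call without LP neutrophil library III (adjusted p = 0.0645) or IV (0.0769) or tumour library I (0.0655), and Epcam gained it without LP library V (0.0495). With library sizes as summed reads the median of all genes moved from -0.12 to -0.57 in this comparison. Such a change shifts all genes of a library nearly alike, so values relative to the median had to stay close. They were 4.31 and 4.29 for Krt18 on the deposited and the summed scale, and 3.21 and 3.19 for Krt8.

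Averaged over the 4 populations, 6 of 8, or 6 of the 7 without Vil1, were higher in tumours, with 19.4% of all genes higher. Krt18 was higher by 3.25 ± 0.35 (limma adjusted p = 4.19e-07), Cdh1 by 2.81 ± 0.60, Krt8 by 2.23 ± 0.49, Epcam by 1.80 ± 0.56, Lgals4 by 1.66 ± 0.38 and Krt19 by 1.60 ± 0.61 (limma adjusted p = 0.0425). Vil1 at 2.46 ± 1.12 (limma adjusted p = 0.0832) and Muc2 at 0.71 ± 1.18 did not pass, and the median of the 8 was 2.02, or 1.80 without Vil1, against -0.04. Without LP monocyte libraries III and V these 6 calls stood, and Vil1, which entered through tumour groups alone, was at 3.32. The call of Krt19 was lost on leaving out any 1 of 16 single libraries, with adjusted p of 0.0529 to 0.0836. It was also lost with the replicate block (1.57, limma adjusted p = 0.0571), quantile normalization, voom or library sizes as summed reads. Epcam lost its call with voom alone (1.71, limma adjusted p = 0.0644). Krt18, Cdh1, Krt8 and Lgals4 kept theirs under all 32 alternatives.

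**Figure D3:**
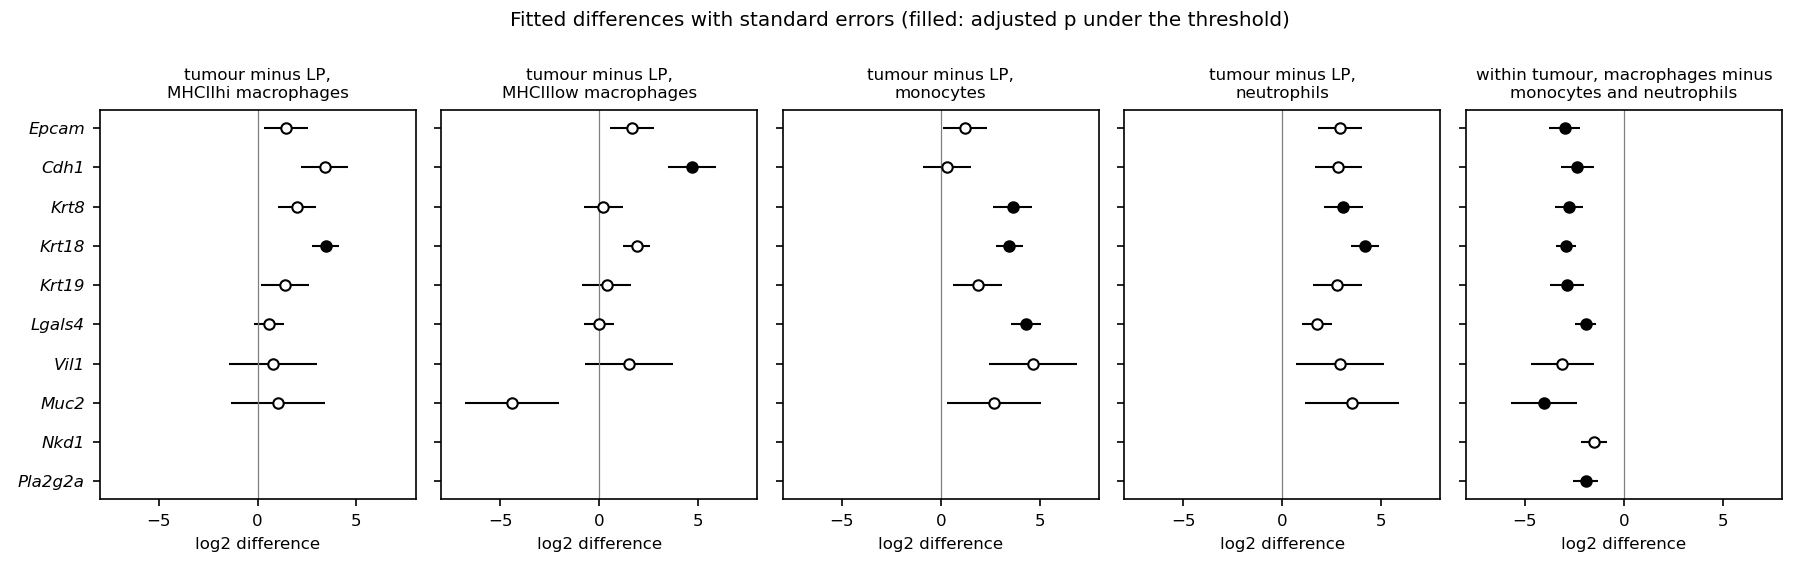
Fitted log2 differences with standard errors for tumour minus LP in each population (first 4 panels) and for macrophages minus monocytes and neutrophils within tumours (last panel), from 3 libraries a group. Filled points passed an adjusted p of 0.05, and Nkd1 and Pla2g2a are drawn only in the last panel. Krt18 is filled in every panel but that of MHCIIlow macrophages, and 8 of 10 points are filled and below 0 in the last panel.

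Within tumours the members were lower on average in macrophages than in monocytes and neutrophils, though single libraries overlapped for every member but Krt18. The share of all genes without such overlap is not given here. The test called 8 of the 10 lower, or 8 of the 9 without Nkd1, where 29.4% of all genes were. Krt18 was lower by 2.92 on the log2 scale (-2.92 ± 0.50, limma adjusted p = 3.71e-05), and Epcam was at -2.99 ± 0.79, Krt19 at -2.89 ± 0.87, Krt8 at -2.78 ± 0.69, Cdh1 at -2.35 ± 0.85, Lgals4 at -1.94 ± 0.53, Pla2g2a at -1.94 ± 0.63 and Muc2 at -4.03 ± 1.67 (limma adjusted p = 0.0394). Vil1 at -3.11 ± 1.58 (limma adjusted p = 0.0871) and Nkd1 at -1.51 ± 0.67 (limma adjusted p = 0.0532) did not pass. The replicate block gave Nkd1 an adjusted p of 0.0486, which is given as a value alone, since the gene entered the test through the higher groups. The size depended on the scale of the libraries. With library sizes as summed reads the median of all genes was 1.12 in place of 0.25 and 4 members passed, Epcam at -2.09, Krt18 at -2.01, Krt19 at -1.98 and Krt8 at -1.87. Relative to the median of all genes, Krt18 was at -3.17 and -3.13 on the 2 scales, Epcam at -3.24 and -3.21 and Nkd1 at -1.76 and -1.73. These had to be alike, since the change shifts all genes of a library nearly alike, so they are no check on the calls. Cdh1 lost its call without tumour MHCIIhi library VII (adjusted p = 0.0646), and that of Muc2 was lost on leaving out any 1 of 8 libraries.

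Between tumour MHCIIlow and MHCIIhi macrophages limma called 0 of 10, with 0.567% of all genes called in each direction and 0 of 10 at an unadjusted p under 0.05, and the values ran from -1.13 for Vil1 to 1.57 for Cdh1. Between tumour neutrophils and monocytes limma called 0 of 10, with 23.3% of all genes higher and 34.9% lower, and 0 of 10 at an unadjusted p under 0.05. Muc2 was at 2.58 ± 2.37 in that comparison and the other 9 within -1.03 and 0.51. The libraries of Muc2 did not overlap, at 2.63 to 5.62 RPKM in neutrophils and 0.249 to 1.02 in monocytes. How many of all genes did so was not counted for these groups, which differed in many genes by the test. Muc2 passed on the scale of log2(RPKM + 1) (limma adjusted p = 0.0426) and with only these 6 libraries fitted (0.0254).

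The summed RPKM of the 8 epithelial members was 9.87, 37.4 and 69.4 (lowest to highest) in tumour MHCIIhi macrophages, 15.8, 31.4 and 220 in tumour MHCIIlow macrophages, 113, 225 and 344 in tumour monocytes and 171, 254 and 343 in tumour neutrophils. The 220 belonged to MHCIIlow library I, which stood with the monocytes and neutrophils. In LP the sum was 6.97 to 17.8 in MHCIIhi and 25.4 to 38.5 in MHCIIlow macrophages, which did not overlap, 24.5 to 140 in monocytes and 16.7 to 70.9 in neutrophils. As RPM (reads scaled to the reads on genes alone, without the scaling between libraries), the 8 came to 27.6 to 161 in tumour MHCIIhi macrophages, 55.2 to 572 in tumour MHCIIlow macrophages, 234 to 762 in tumour monocytes and 163 to 316 in tumour neutrophils. On this scale tumour monocyte libraries II and V exceeded all 3 tumour neutrophil libraries, and tumour MHCIIlow library I exceeded all 3 neutrophil libraries. Within tumour pool V, the sum in RPKM was 37.4 and 15.8 in the macrophage subsets against 225 and 254 in monocytes and neutrophils, and within pool I it was 69.4 and 220 against 113 and 343.

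**Figure D4:**
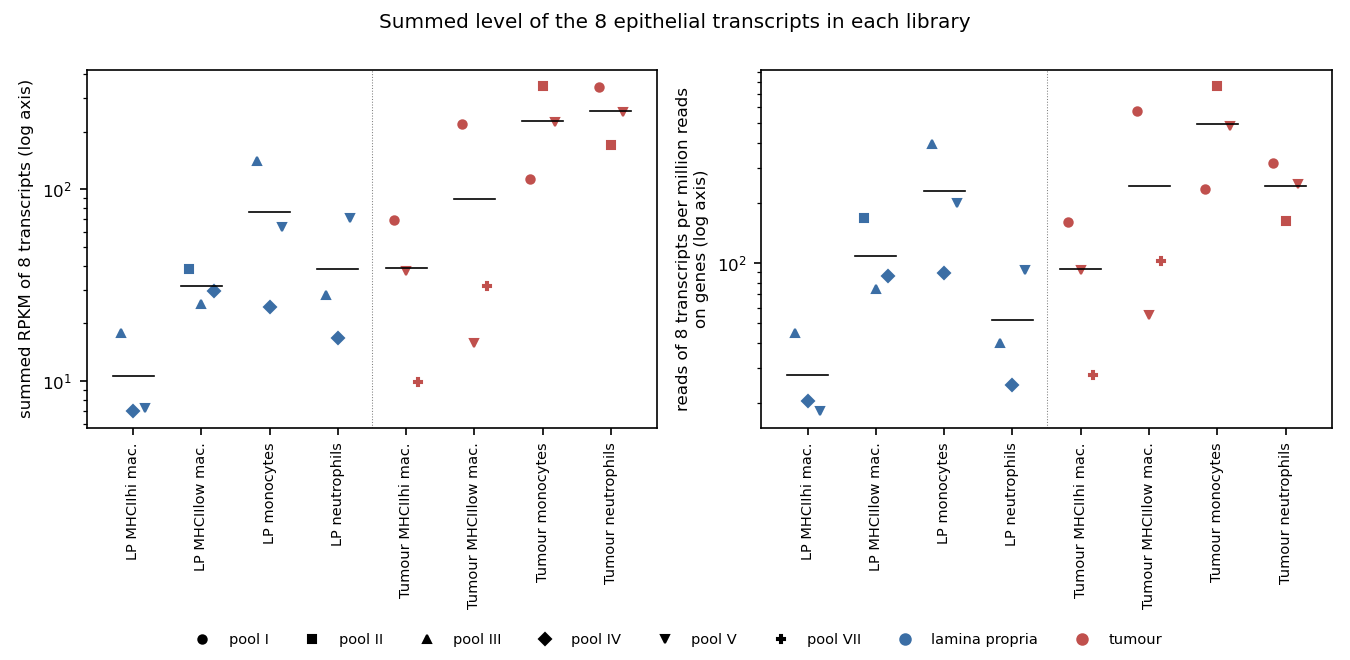
Summed level of the 8 epithelial transcripts in each library, as RPKM (left) and as RPM, reads scaled to the reads on genes (right), on log axes. Symbols give the pool, colours the tissue and lines the mean of 3 libraries. Tumour monocytes and neutrophils lie between 113 and 344 RPKM, and tumour MHCIIlow library I at 220 is apart from the other 2 of its group.

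Epcam held a narrow share of the sum in tumour monocytes and neutrophils, and other members a wider one. In these 6 libraries Epcam made up 12.8 to 13.8% of the summed RPKM, Krt8 31.5 to 37.4%, Krt18 14.7 to 23.0%, Krt19 15.9 to 22.4% and Lgals4 5.70 to 10.1%, Cdh1 1.98 to 8.35% and Muc2 0.0725 to 3.28%. In the 6 tumour macrophage libraries Epcam made up 3.58 to 21.8%, Krt8 13.4 to 41.2% and Cdh1 1.60 to 28.3%. MHCIIlow library V was the most unlike the others, with Cdh1 at 28.3% and a ratio of Cdh1 to Epcam of 7.90. The ratio of Epcam to Lgals4 was 1.51 to 2.37 in tumour monocytes and 1.26 to 2.20 in tumour neutrophils, against 0.584 to 0.782 in LP neutrophils and 0.0700 to 0.866 in LP macrophages. Tumour macrophages overlapped these LP values, at 0.633 to 1.67 in MHCIIhi and 0.188 to 1.78 in MHCIIlow macrophages. LP monocyte library IV, at 3.64, lay above every tumour library.

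LP monocyte libraries III and V held another mixture. In library III Krt19 made up 52.7%, Epcam 27.8% and Cdh1 15.7% of the sum and Lgals4 0.273%, and in library V Epcam made up 34.5% and Cdh1 28.2%. Their ratios of Epcam to Lgals4 were 102 and 9.78. Krt5 and Krt14, keratins of basal squamous cells, were at 582 and 1210 RPKM in library III, 102 and 209 in library V, and 0.605 and 2.20 in library IV. Library IV, lower in these keratins, had 992 Cdh1 reads with a ratio of Cdh1 to Epcam of 2.54.

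**Figure D5:**
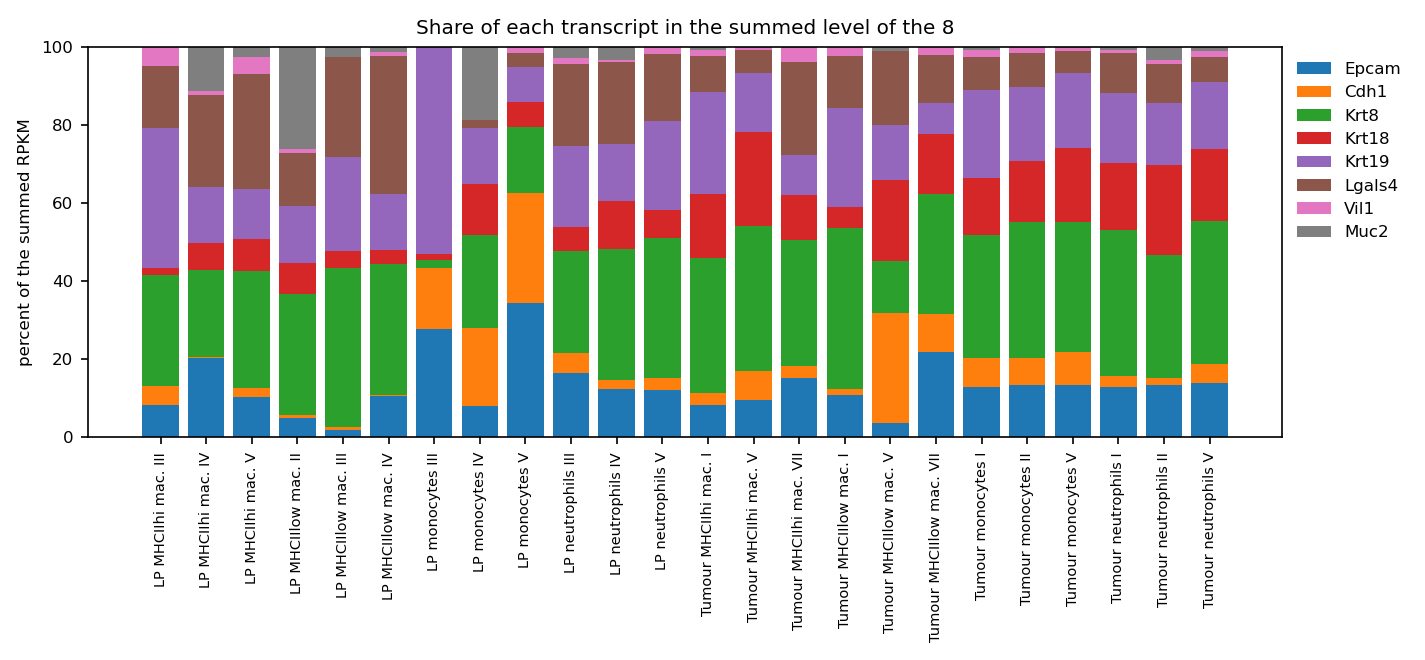
Share of each of the 8 transcripts in their summed RPKM, in percent, 1 bar for each library. In the 6 bars of tumour monocytes and neutrophils Epcam is at 12.8 to 13.8% and Cdh1 at 1.98 to 8.35%, whereas LP monocyte libraries III and V and tumour MHCIIlow library V differ from the rest.

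Within LP, 3 of 10 members were lower in macrophages than in monocytes and neutrophils, where 28.5% of all genes were: Cdh1 at -4.83 ± 0.85 (limma adjusted p = 6.59e-05), Epcam at -2.49 ± 0.79 (limma adjusted p = 0.0106) and Krt18 at -1.75 ± 0.50 (limma adjusted p = 0.00504). Lgals4 was at 0.83 ± 0.53. Nkd1 and Pla2g2a, near 0 in both sets, carry no information here. Without LP monocyte libraries III and V, Cdh1 and Krt18 passed and Epcam did not (-1.18, adjusted p = 0.277). The difference of the tumour effect between macrophages and the other 2 populations was tested for the 8, and 1 passed, where 10.6% of all genes were lower: Lgals4 at -2.77 ± 0.76 (limma adjusted p = 0.0124). The others ran from -4.78 ± 2.37 for Muc2 to 2.48 ± 1.20 for Cdh1.

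Over the 24 libraries the log2 RPKM of Nkd1 and Pla2g2a correlated with r = 0.97, which their choice fixes, and over the 12 tumour libraries with r = 0.63. Among the 28 pairs of epithelial members r in tumour libraries ran from 0.34 to 0.98 with a median of 0.77, highest for Epcam with Krt8, and in LP libraries from -0.50 to 0.71 with a median of 0.18. Nkd1 correlated with Epcam at 0.54 and with Cdh1 at 0.70 over tumour libraries. These values describe the libraries, which share populations, pools and a scaling of library size, and low reads add noise in LP.

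Of 22 Wnt target genes other than Nkd1, 8 were among those tested, and on average over the 4 populations 3 were higher and 2 lower in tumours, where 19.4% and 23.0% of all genes were. The 3 higher ones reached 1 RPKM in tumour groups alone, so that they had to be higher there, and they are described by their reads. They were Mmp7, a matrix protease made by adenoma cells, and Dkk2 and Wif1, secreted Wnt antagonists. Mmp7 had 13 to 289 reads in every tumour library, 0 in the LP macrophage and neutrophil libraries and 0 to 36 in the LP monocyte libraries. Its tumour RPKM was 13.5 to 14.9 in neutrophils, 3.30 to 5.19 in monocytes and 0.351 to 10.2 in macrophages. Dkk2 had 6 to 80 reads in tumour libraries and at most 27 in LP. Wif1 had 0 to 603 reads in tumours, while its only LP reads, 88, fell in 1 monocyte library.

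Cd44 and Myc, which leukocytes also use, moved otherwise. Cd44, an adhesion receptor of leukocytes at 63.7 to 1550 RPKM, was lower in tumours in MHCIIhi macrophages (-1.95 ± 0.20) and MHCIIlow macrophages (-1.82 ± 0.20) and higher in neutrophils (0.59 ± 0.20, limma adjusted p = 0.0287). Myc was lower in tumour monocytes by 2.22 on the log2 scale (-2.22 ± 0.44, limma adjusted p = 0.00259). The 14 targets too low to test included crypt genes. Axin2 had 26 reads over 12 LP libraries and 151 over 12 tumour libraries, Lgr5 87 and 266, Ascl2 35 and 224, Notum 20 and 320 and Sp5 0 and 92, and 11 of the 14 had more reads in tumours, as 35.1% of the 4423 untested genes of the table did. Tumour libraries held 294 M reads in all against 347 M reads in LP. These genes were picked after their values were seen. Of 18 tested components of the Wnt pathway, which all cells use, 2 were higher (Wls and Tcf7l2) and 7 lower on average, where 19.4% and 23.0% of all genes were, with a median of -0.36 against -0.04. Wls, needed for Wnt secretion, was higher in tumour neutrophils, and Ctnnb1, beta-catenin itself, was lower there.

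Other epithelial genes were counted by kind. Of 20 tested genes of epithelial junction and identity, all 20 were above 0 on average over the 4 populations, as 47.5% of all genes tested were, and 6 passed (Cdh17, Cldn4, Cldn7, Elf3, Gpa33 and Spint1), where 19.4% of all genes were higher. None was called lower, and the median was 1.83 against -0.04. Of the 20, 5 reached 1 RPKM in tumour groups alone, Cdh17 and Gpa33 among them, and of the 14 that reached it in both tissues 4 passed. Cldn4, a tight junction protein, was at 82.3 ± 39.8 RPKM (SD, n = 3) in tumour monocytes and 86.9 ± 27.8 in tumour neutrophils, 11.7 ± 8.42 and 12.2 ± 13.0 in the tumour macrophage subsets, and 50.5 ± 39.4 in LP monocytes. Cldn7 was at 14.9 ± 9.01 in tumour monocytes and 14.4 ± 4.11 in tumour neutrophils against 2.12 ± 2.08 and 4.65 ± 5.59 in tumour macrophages, and was higher in tumour than LP neutrophils (4.60 ± 1.26, limma adjusted p = 0.00834). Spint1, an inhibitor of serine proteases, was at 95.1 to 108 RPKM in LP MHCIIhi macrophages, a level that the 8 members did not reach there. Within tumours it was higher in macrophages than in the average of monocytes and neutrophils (1.82 ± 0.22), but not higher than in monocytes. Its tumour RPKM was 124 ± 5.57 in MHCIIhi macrophages, 126 ± 16.6 in MHCIIlow macrophages, 154 ± 49.8 in monocytes and 9.0 ± 3.98 in neutrophils.

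Of 11 tested genes of absorptive colonocytes, 1 passed on average (Eps8l3, which organises microvilli, and which reached 1 RPKM in tumour groups alone) and 0 were lower, where 19.4% and 23.0% of all genes were, with a median of 1.22 against -0.04. Within tumours 9 of the 11 were lower in macrophages than in monocytes and neutrophils, where 29.4% of all genes were, among them Phgr1 (-3.99 ± 1.14). Of the 11, 3 reached 1 RPKM in tumour monocytes or neutrophils alone, and of the other 8, 7 were lower. Slc26a3, the chloride exchanger of mature surface colonocytes, had 146 reads over the LP libraries and 0 over the tumour libraries, and was named after its values were seen. Of 4 tested goblet cell genes 1 was higher on average, where 19.4% of all genes were: Reg4 (3.46 ± 1.15, limma adjusted p = 0.02), at 9.96 ± 8.11 RPKM in tumour neutrophils, whereas Creb3l1 was lower in tumour than LP MHCIIhi macrophages. Of 9 enteroendocrine and tuft cell genes 4 were found and 0 were high enough to test, and Chga, a hormone granule protein, had at most 38 reads in a library.

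Markers of other cell types also differed between the tissues, and their part in the results above was not tested. Lists whose genes reached 1 RPKM in 1 tissue alone had to differ, and are given by their levels. Of 5 tested fibroblast genes 4 reached it in LP alone, and the fifth, Col1a1, was lower in tumours on average. The summed level of the 7 listed fibroblast genes was 6.86 to 62.4 RPKM in LP and 0.0136 to 1.57 in tumour libraries, with Col3a1 at 0 reads in all 3 tumour monocyte libraries. The B and plasma cell genes had a sum of 11.0 to 1300 RPKM in LP and 0.192 to 69.2 in tumour libraries, mostly Jchain, the joining chain of secreted antibodies. The 4 tested erythroid genes reached 1 RPKM in tumours alone, and the erythroid list had a sum of 0.0375 to 0.617 RPKM in LP and 1.31 to 19.0 in tumour libraries, and Hbb-bs, a globin, had 22 to 107 reads in tumour and 0 to 4 in LP libraries. The 3 tested smooth muscle genes reached 1 RPKM in LP alone, and the 2 tested T cell genes in tumours alone. The 6 endothelial genes were too low to test, at 0.148 to 1.88 RPKM in sum.

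The 12 tested genes whose log2 RPKM followed the mean of the 8 epithelial members most closely over the 24 libraries were Myo1a (r = 0.88), Myo7b, Gpx2, Atp1b1, Dnajc22, Rffl, Cldn7, Il1a, Atxn1, Cldn3, Gpa33 and Cic (r = 0.82). Myo1a and Myo7b are brush border myosins, Gpx2 a glutathione peroxidase of gut epithelium, and Cldn3 and Cldn7 claudins. Myo7b, Dnajc22 and Gpa33 were at 0.6 RPKM or less in every LP library. They thus entered the test through tumour groups alone, and their place is a description only. Il1a is a cytokine at 363 to 4100 RPKM in tumour and 70.9 to 262 in LP libraries. The 12 nearest to Nkd1 were Rps6ka1 (r = 0.90), Acaa1a, Pnliprp2, Dkk2, Hbb-bs, Hba-a1, Adamts10, Bin2, Slc35b2, Dock8, Il1a and Wif1 (r = 0.86). They include the Wnt antagonists Dkk2 and Wif1, globins, and genes at high levels in all libraries. Bin2, for example, was at 8.12 to 60.2 RPKM in LP and 78.3 to 207 in tumour libraries. Because Nkd1 was chosen for being higher in all tumour libraries, a close correlation with it mostly picks genes higher in tumours. Dkk2, Wif1, Pnliprp2, Hbb-bs and Hba-a1 also reached 1 RPKM in tumour groups alone, so their place here is a description only.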

How the data were processed

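RNA of 4 sorted myeloid populations from LP and colon tumours was sequenced as paired ends after amplification with a modified SMARTSeq v2 protocol. Per the labels' processing notes the authors used STAR 2.3, featureCounts 1.5 and edgeR with GRCm38/mm10 and GENCODE genes, and they deposited log2 RPKM for 17301 genes, of which 17190 identifiers were matched to a symbol. Whether strand was used in counting is not given in the sources used here.

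Read numbers per gene were worked back from the deposited log2 RPKM, which carry a prior count of 0.25 and scaled library sizes. Within a tolerance of 0.005, 100% of values came out whole, and 6 genes had more than 1 possible length. Differences were fitted by limma 3.58.1 (R 4.3.3, lmFit, contrasts.fit, eBayes with a trend) with 1 mean per group over the 24 libraries. Tested were the 12878 genes that reached a group mean of 1 RPKM anywhere, with Benjamini-Hochberg adjustment over all of them in each comparison. The fit was also run on simulated data as a check of the code, with results not given here. Comparisons share libraries and are not independent. Coordinates came from GENCODE M21, and 51-base stretches were matched between its transcripts.

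The members and gene lists were chosen with earlier results of these data known. Besides the members, the text names from each list the 3 called genes with the highest mean RPKM in any group (1 gene where none was called), the 12 genes most like the epithelial mean and like Nkd1, and genes named after their values were seen, among them those behind small counts. Alternatives were log2(RPKM + 1), a higher filter (group mean of 5 RPKM) or no filter, quantile normalization, only the libraries compared, the pool number as a replicate block, limma voom on the reads worked back, and leaving out each library. After seeing the data, library sizes as summed reads, the omission of LP monocyte libraries III and V together, and counts without Vil1 or Nkd1 were added. The main fit had no term for the donor label and treated libraries as independent, and the label entered only through the replicate block. As a check, libraries of 1 tissue with the same donor label were compared. Over 29 such pairs the deviations from group means correlated with r from -0.0661 to 0.255, median 0.0169. Tables were made with python 3.11.15 and pandas 2.3.3.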

Additional observations from a re-analysis of the deposited data

Results flagged for a closer look

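The tumour effect on Lgals4 differed between macrophages and the other 2 populations by a test of the difference itself, at -2.77 ± 0.76 (log2 difference ± SE, limma adjusted p = 0.0124, 3 libraries a group). Tumour minus LP was 0.57 in MHCIIhi macrophages and -0.03 in MHCIIlow macrophages, and 4.33 in monocytes and 1.75 in neutrophils. The call was made under all 32 alternatives, with adjusted p from 0.001 to 0.0267, and stood at -3.03 without LP monocyte libraries III and V. Lgals4 was at 0.382 to 2.25 RPKM in LP monocytes, the lowest group.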

How the results depend on the processing

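The counts of members that passed were small and some moved. In MHCIIhi macrophages the count of 1 became 2 with the filter at 5 RPKM, quantile normalization, the replicate block or library sizes as summed reads, and 0 with only the libraries compared, and it was 1 to 2 on leaving out single libraries. In MHCIIlow macrophages the count of 1 became 2 with that filter, quantile normalization or summed reads and 0 with voom, and was 1 to 3 without single libraries. In monocytes 3 became 1 without LP monocyte libraries III and V. In neutrophils 2 became 7 with log2(RPKM + 1) and 1 with quantile normalization, and was 1 to 3 without single libraries. Between tumour neutrophils and monocytes 0 became 1 with log2(RPKM + 1) or only the libraries compared. Within tumours 8 became 4 with summed reads, and was 6 to 9 without single libraries, and within LP 3 became 1 with voom. The difference of tumour effects gave 1, 2 with log2(RPKM + 1), and 1 to 3 without single libraries, 3 without LP MHCIIhi library III and 2 without LP monocyte library IV or tumour MHCIIlow library I. Of 1870 single values recomputed, 1758 kept their call or moved by less than the spread, 48 lost and 44 gained a call, 20 with no test moved further and 0 called values changed sign. The replicate block changed no other count by over 1.5 times. In libraries where Vil1, Muc2 or Nkd1 had few reads or none, 1 read more or less sets the value on the log scale. Depth alone does not describe the scatter of Muc2. It had 0 reads in LP MHCIIhi library III, of 35.0 M reads, and 2957 in LP MHCIIlow library II, of 31.3 M reads.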
